A study of Mus musculus with 31 samples.

Results

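Drd1a- and Drd2-expressing cells were compared with each other in striatum and again in cortex of young mice, and the difference in cortex was then subtracted from the difference in striatum. This quantity, called the interaction here, tests whether the difference between the 2 cell types itself differs between the regions. It can mark genes that part them in 1 region only, by unequal amounts in both, or in opposite directions. Where it was not called, equal amounts were not thereby shown. The members were the 15 arrays labelled young (6 weeks) of the 31 in the series: 3 of striatal Drd1a cells and 4 each of striatal Drd2, cortical Drd1a and cortical Drd2 cells. The other 16 arrays, 4 per region and cell type at 2 years, served as a separate set. All groups held RNA from translating ribosome affinity purification, which pulls down tagged ribosomes from a genetically marked cell type together with the messages they carry. The whole cortex was used for each cortical sample. The labels name the marked cells by receptor gene (Drd1a, now Drd1, and Drd2) but name neither the mouse lines nor the promoter of the tag, and the source of each replicate (1 mouse, several or a shared pool) is not given. The p-values therefore cover only how far these samples spread, which may be technical.

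The striatum sends its output through inhibitory projection neurons of 2 kinds. Direct-pathway neurons carry the D1 dopamine receptor, substance P and dynorphin. Indirect-pathway neurons carry the D2 receptor and enkephalin. In the cortex the same receptors occur in subsets of glutamatergic projection neurons and of interneurons, so the receptor label marks cells of other lineages there. In purified bulk RNA, fewer cells of a type and less RNA per cell cannot be told apart.

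Each of the 16345 features had been deposited on the log2 scale as a distance from its own median over the arrays, so values are levels relative to that median and no absolute level is known. A feature was called where limma's two-sided moderated test gave a Benjamini-Hochberg adjusted p under 0.05 over all features and the change was at least 1.2-fold. Array medians ran from -0.056 to 0.10. In striatum 560 features were called (3.43%): 316 (1.93%) were higher in Drd1a cells and 244 (1.49%) were higher in Drd2 cells. In cortex 2055 were called (12.6%), 1142 (6.99%) higher in Drd1a and 913 (5.59%) higher in Drd2 cells. The interaction was called for 584 features (3.57%), 273 (1.67%) in the direction of Drd1a in striatum and 311 (1.9%) in the other. Centring each array on its median changed that split to 182 and 375. Leaving out striatum Drd1a replicate 1, in the smallest group, left 385 interactions and 305 striatal calls, and leaving out striatum Drd1a replicate 3 left 361 striatal calls.

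Cell type differences in the regions overlapped in part. Of the 315 features called in both regions, 300 (1.84% of features) had the same direction. They made up 53.6% of the striatal calls and 14.6% of the cortical calls. In 272 of these the interaction was not called, and in 28 it was, so that the direction was shared and the size was not. The other 15 had opposite directions. A further 72 were called in striatum and not in cortex with the interaction also called, and 410 in cortex and not in striatum with the interaction called. Another 173 features were called in striatum alone and 1330 in cortex alone without a called interaction, so a difference between regions was not shown for them. In 59 features the interaction was called while neither regional difference was. Without striatum Drd1a replicate 1 the classes held 163 features of the same direction without a called interaction, 16 of unequal size (17 without striatum Drd1a replicate 3), 8 opposed, and 43 called in striatum and 286 in cortex alone with a called interaction.

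**Figure D1:**
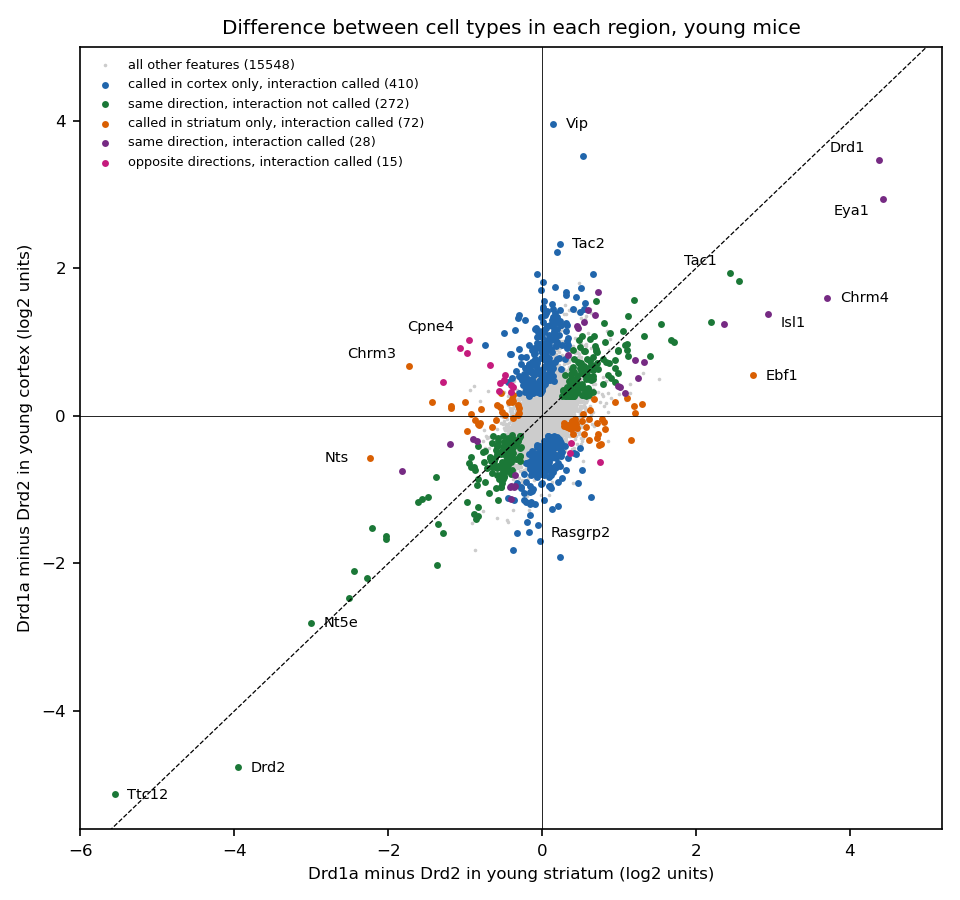
Each point is 1 of 16345 features. The horizontal axis is the Drd1a minus Drd2 difference in young striatum and the vertical axis the same difference in young cortex, in log2 units, with equality as a dashed line. Ttc12 and Nt5e lie near the line, Vip and Tac2 near the vertical axis, and Ebf1 and Chrm4 well below the line. Points without a name include features with several gene symbols or none.

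The receptor genes checked the labels in both regions. Drd1 lay at 1.74, 1.60 and 1.56 in striatal Drd1a arrays and at -2.69, -2.67, -2.50 and -3.13 in striatal Drd2 arrays. In cortex it lay at 0.07, 0.67, 0.73 and 0.78 in Drd1a arrays and between -2.93 and -2.87 in Drd2 arrays. The groups did not overlap in either region, and cortical Drd1a replicate 1 stood lowest among the Drd1a arrays. The Drd1 difference was 4.38 ± 0.15 (SE) in striatum, a 20.9-fold excess, and 3.47 ± 0.14 in cortex, an 11.1-fold excess. The interaction of 0.91 ± 0.21 was called (limma, adjusted p = 0.0253). That call was lost without striatum Drd1a replicate 1 (adjusted p = 0.0727). Quantile normalization of the centred values, which gives every array the same distribution of values, turned the interaction to -0.51 (adjusted p = 0.102). The call was also lost with median centring (adjusted p = 0.0563), with all 31 arrays in the fit (0.0515), with trended moderation (0.0883) and without the 2 arrays of highest median (0.0592).

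Drd2 lay at -3.07, -4.22 and -3.10 in striatal Drd1a arrays and at 0.46, 0.50, 0.46 and 0.55 in striatal Drd2 arrays. Its cortical values lay at -4.87, -4.31, -4.47 and -4.56 in Drd1a arrays and at 0.04, 0.28, 0.15 and 0.38 in Drd2 arrays. Every Drd2-cell array was thus above every Drd1a-cell array in each region. The difference was -3.96 ± 0.21 in striatum and -4.76 ± 0.20 in cortex. The interaction was not called, at 0.81 with a 95% interval from 0.19 to 1.42 (adjusted p = 0.163).

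Indirect-pathway genes parted the cell types in both regions. The list held 10 genes, but Adora2a, Gpr52, Sp9 and Grik3 were not among the features with 1 gene symbol. All 6 measured genes (Drd2, Gpr6, Penk, Ptprm, Upb1 and Plxdc1) were higher in Drd2 cells in striatum and in cortex. The shares of all features were 1.49% and 5.59%, and Drd2 is the gene by which the cells were marked. None of the 6 had a called interaction. Only 3.57% of all features had one, so its absence does not set the 6 apart. Their median difference was -1.39 in striatum and -1.34 in cortex, beside 0.020 and -0.0055 over all features. Their median interaction was -0.23, beside 0.023 over all features. Gpr6, an orphan receptor that raises cyclic AMP, lay between -1.19 and -0.22 in striatal Drd1a arrays and between 1.55 and 1.84 in striatal Drd2 arrays. The values in cortex lay between -1.32 and -0.62 in Drd1a and between 1.04 and 1.33 in Drd2 arrays. The ranges did not overlap in either region. Its difference was -2.45 ± 0.20 in striatum and -2.10 ± 0.19 in cortex, with an interaction of -0.35 (95% interval -0.94 to 0.24).

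Penk, the precursor of enkephalin, differed less: by -0.88 ± 0.11 in striatum and -0.69 ± 0.10 in cortex. It lay between 0.08 and 0.16 in striatal Drd2 arrays and between 0.12 and 0.20 in cortical Drd2 arrays. The 2 Drd2 groups thus overlapped in Penk, and both lay above every Drd1a array. Ptprm, a receptor tyrosine phosphatase, differed by -1.48 ± 0.11 and -1.09 ± 0.10, and Upb1, an enzyme of pyrimidine breakdown, by -1.29 ± 0.11 and -1.59 ± 0.10. Plxdc1 was the weakest at -0.76 ± 0.16 and -0.49 ± 0.15. Its striatal call was lost without striatum Drd1a replicate 1 or 2 (adjusted p up to 0.0868), and its cortical call in 6 of 15 leave-outs (adjusted p up to 0.114).

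The largest difference in both regions was that of Ttc12. It lay between -4.92 and -4.82 in striatal Drd1a arrays and between 0.58 and 0.76 in striatal Drd2 arrays. In cortex it lay between -4.95 and -4.74 in Drd1a and between 0.00 and 0.51 in Drd2 arrays. The 2 cell types were separated by more than the whole spread within any group. The difference was -5.55 ± 0.10 in striatum and -5.13 ± 0.09 in cortex. Ankk1 differed by -2.27 ± 0.11 and -2.20 ± 0.10. Drd2, Ankk1 and Ttc12 are consecutive protein-coding genes on chromosome 9 in RefSeq. Whether the construct that marks the Drd2 cells carries the neighbouring genes was not tested.

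Other genes on the Drd2 side had other roles. Nt5e, the surface enzyme that makes adenosine from AMP, lay at -1.90, -1.79 and -1.33 in striatal Drd1a arrays and between 1.21 and 1.55 in striatal Drd2 arrays. Its cortical values lay between -2.16 and -1.17 in Drd1a and between 0.77 and 1.40 in Drd2 arrays. The 2 differences, -3.0 ± 0.21 and -2.80 ± 0.19, left an interaction of -0.20 (95% interval -0.79 to 0.40). Crabp2, which carries retinoic acid, differed by -2.03 ± 0.29 in striatum and -1.68 ± 0.27 in cortex. Fst, the activin antagonist follistatin, differed by -2.02 ± 0.18 and -1.63 ± 0.17. Kcnk2, a background potassium channel, differed by -0.84 ± 0.14 and -1.23 ± 0.13. Sema3e, a secreted guidance cue, differed by -0.62 ± 0.13 and -0.61 ± 0.12. Meis1, a homeobox factor, differed by -1.56 ± 0.21 and -1.13 ± 0.19. Slc5a7, the choline transporter of cholinergic neurons, was also higher in Drd2 cells in both regions, by -0.76 ± 0.13 and -0.62 ± 0.12. Of 7 measured cholinergic genes, 3 were called in striatum and 2 in cortex, all higher in Drd2 cells. The shares of all features higher in Drd2 cells were 1.49% in striatum and 5.59% in cortex. The mean of the cholinergic list ran from 0.10 to 0.27 in striatal Drd2 arrays and from -0.26 to -0.023 in striatal Drd1a arrays. The part of cholinergic interneurons in the differences was not tested.

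On the Drd1a side the shared genes held 3 of the 10 direct-pathway genes. Tac1, the precursor of substance P, lay at 1.00, 0.97 and 0.99 in striatal Drd1a arrays and between -2.10 and -1.13 in striatal Drd2 arrays. The values in cortex lay at 0.00, 0.47, 0.61 and 0.68 in Drd1a and between -1.65 and -1.22 in Drd2 arrays. The lowest Drd1a array was the cortical replicate 1 in this gene too, yet it remained above every Drd2 array. The difference was 2.45 ± 0.20 in striatum and 1.93 ± 0.19 in cortex, with an interaction of 0.51 (95% interval -0.07 to 1.09). Pdyn, the precursor of dynorphin, differed by 1.68 ± 0.16 and 1.03 ± 0.15, and Sfxn1, a mitochondrial serine transporter, by 2.56 ± 0.20 and 1.83 ± 0.19. Their intervals, 0.18 to 1.12 for Pdyn and 0.14 to 1.32 for Sfxn1, lay above 0 although neither interaction was called. Genes outside the list were Stmn2, a regulator of microtubules (1.54 ± 0.13 and 1.25 ± 0.12), Gnb4, a G protein subunit (1.33 ± 0.17 and 1.08 ± 0.16), and the LIM-domain gene Fhl2 (1.06 ± 0.14 and 1.15 ± 0.13). Foxp2, a transcription factor of striatal and deep-layer cortical neurons, differed by 1.08 ± 0.12 and 0.96 ± 0.11. After quantile normalization its interaction was called at -0.73. Kcnj3, which forms inward-rectifier potassium channels opened by G proteins, differed by 0.95 ± 0.13 and 0.75 ± 0.12, and neither difference was called after quantile normalization.

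A missed threshold does not show equal differences. Among the 272 features of the same direction without a called interaction, the 95% interval of the interaction lay within a 1.5-fold ratio in 199 and excluded 0 in 56. The median size of the interaction among them was 0.14, with a median interval half-width of 0.30.

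Most direct-pathway genes differed more in striatum than in cortex. All 10, among them Drd1 by which the cells were marked, were higher in Drd1a cells in striatum, beside 1.93% of all features. In cortex 8 were higher, beside 6.99% of all features. The median difference was 2.65 in striatum and 1.49 in cortex, and the median interaction was 1.02. The interaction was called for 7, all in the direction of striatum, beside 1.67% of all features. After quantile normalization it was called for 3. Fits that left out 1 array each gave 5 to 7 such calls. Chrm4, the M4 muscarinic receptor that restrains D1 signalling, lay at 1.67, 1.61 and 1.88 in striatal Drd1a arrays and at -2.24, -1.67, -2.0 and -2.06 in striatal Drd2 arrays. In cortex it lay at -0.29, 0.36, 0.73 and 0.51 in Drd1a arrays and at -1.35, -1.20, -1.13 and -1.43 in Drd2 arrays. The cortical groups lay inside the span of the striatal groups without overlapping each other. Chrm4 was thus 13.1-fold higher in Drd1a cells in striatum (3.71 ± 0.19) and 3.04-fold higher in cortex (1.60 ± 0.17). The interaction was 2.10 ± 0.25 (adjusted p = 0.000407), and 0.75 and not called after quantile normalization.

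Eya1, a transcriptional coactivator, lay at 3.76, 3.83 and 3.54 in striatal Drd1a arrays and between -0.89 and -0.47 in striatal Drd2 arrays. Its cortical values lay between 2.35 and 2.82 in Drd1a and between -0.66 and -0.14 in Drd2 arrays. Both Drd1a groups stood clear of both Drd2 groups. The difference was 4.44 ± 0.14 in striatum and 2.94 ± 0.13 in cortex, with an interaction of 1.49 ± 0.19 (adjusted p = 0.000649). Isl1, a LIM-homeobox factor required for direct-pathway neurons in mouse, differed by 2.94 ± 0.22 and 1.38 ± 0.21, and its interaction of 1.56 ± 0.30 was 1.06 and not called after quantile normalization. Slc35d3, a transporter-family gene, had an interaction of 1.12 ± 0.27 whose call was lost in 8 of 15 leave-outs (adjusted p up to 0.0833).

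Ebf1, a transcription factor of direct-pathway differentiation, lay at 2.13, 2.22 and 2.09 in striatal Drd1a arrays and between -0.76 and -0.23 in striatal Drd2 arrays. The values in cortex lay at -0.68, -0.26, 0.25 and 0.12 in Drd1a arrays and at -0.25, -0.88, -0.67 and -0.96 in Drd2 arrays. The cortical groups overlapped. The difference was 2.74 ± 0.20 in striatum and 0.55 ± 0.19 in cortex (adjusted p = 0.066), with an interaction of 2.19 ± 0.28 (adjusted p = 0.000574). Zfp521, a zinc-finger factor that acts with Ebf1 in striatum, differed by 1.10 ± 0.11 in striatum and 0.24 ± 0.11 in cortex, with an interaction of 0.86 ± 0.15 (adjusted p = 0.00593).

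**Figure D2:**
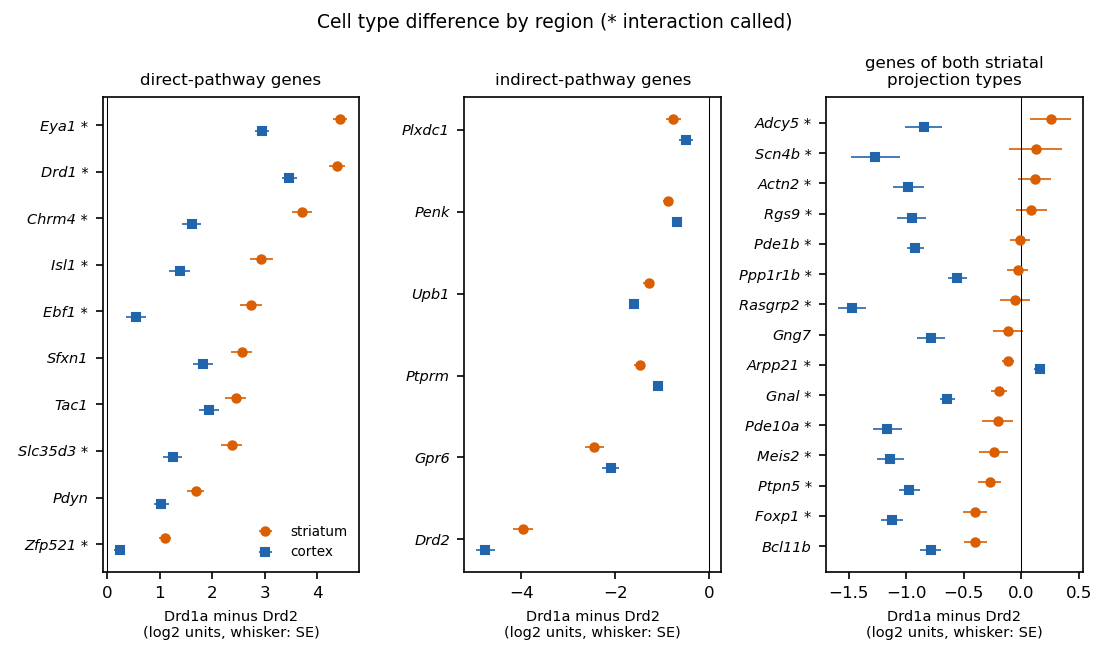
Drd1a minus Drd2 differences in log2 units (point, with SE as whisker) in striatum and in cortex for the direct-pathway, indirect-pathway and shared striatal genes, with called interactions starred. Direct-pathway genes lie further from 0 in striatum, indirect-pathway genes lie below 0 in both regions with no interaction called, and shared striatal genes lie near 0 in striatum and below 0 in cortex apart from Arpp21.

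Features called in striatum and not in cortex, with the interaction called as well, numbered 42 on the Drd1a side and 30 on the Drd2 side. S100a10, the annexin A2 partner p11, lay at -1.39, -1.39 and -1.69 in striatal Drd1a arrays and between -0.27 and 0.08 in striatal Drd2 arrays. In cortex it lay between -0.39 and 0.09 in Drd1a and between -0.65 and -0.23 in Drd2 arrays. The striatal Drd1a group alone stood apart. The difference was -1.43 ± 0.12 in striatum and 0.18 ± 0.12 in cortex, with an interaction of -1.61 ± 0.17 (adjusted p = 0.000224). Chrna4, a nicotinic receptor subunit, and Trpc4, a cation channel, showed the same pattern, with striatal differences of -1.0 ± 0.11 and -1.18 ± 0.15 and interactions of -1.19 ± 0.15 and -1.31 ± 0.20. Nrp1, a semaphorin receptor, had an interaction of -0.50 ± 0.10 (adjusted p = 0.0156), which was not called with all 31 arrays in the fit (adjusted p = 0.118).

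For 2 further genes of this kind the interaction call was lost on leaving out single arrays. Chrm3, the M3 muscarinic receptor, lay at -1.67, -1.68 and -1.11 in striatal Drd1a arrays and at 1.03, 0.60, -0.97 and 0.31 in striatal Drd2 arrays, where replicate 3 came close to the Drd1a arrays. Its interaction of -2.40 ± 0.54 (adjusted p = 0.0212) was lost without striatum Drd1a replicate 1 or 2 (adjusted p up to 0.0602). Nts, the precursor of neurotensin, lay between -2.14 and -0.82 in striatal Drd1a and between 0.76 and 0.88 in striatal Drd2 arrays. Its cortical values lay at -0.31, 1.08, 1.00 and 0.67 in Drd1a and between 0.89 and 1.40 in Drd2 arrays, with Drd1a replicate 1 lowest. Its interaction of -1.67 ± 0.41 (adjusted p = 0.0362) was lost in 13 of 15 leave-outs (adjusted p up to 0.0831).

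On the Drd1a side of this class were Crabp1, a retinoic acid carrier, Sntg2, a syntrophin, Reln, a secreted guide of neuronal position, and Grik2, a kainate receptor subunit. Crabp1 lay between 1.18 and 1.45 in striatal Drd1a and between -0.07 and 0.36 in striatal Drd2 arrays. The values in cortex lay between -0.78 and 0.25 in Drd1a and between 0.07 and 0.24 in Drd2 arrays. Only the striatal groups were apart, and the interaction was 1.49 ± 0.24 (adjusted p = 0.00322). The interactions of Sntg2, Reln and Grik2 were 1.06 ± 0.18, 1.14 ± 0.21 and 0.97 ± 0.16. The striatal difference of Reln, 0.75 ± 0.15, was not called without striatum Drd1a replicate 1 (adjusted p = 0.0677), while its interaction was called whichever array was left out and not after quantile normalization (adjusted p = 0.0762).

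Retinoic acid carriers thus appeared on both sides, Crabp2 higher in Drd2 cells of both regions and Crabp1 higher in Drd1a cells of striatum. Of 16 measured genes of retinoid signalling, 3 were called in striatum and 5 in cortex, and the interaction was called for 2. The shares over all features were 3.43%, 12.6% and 3.57%.

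**Figure D3:**
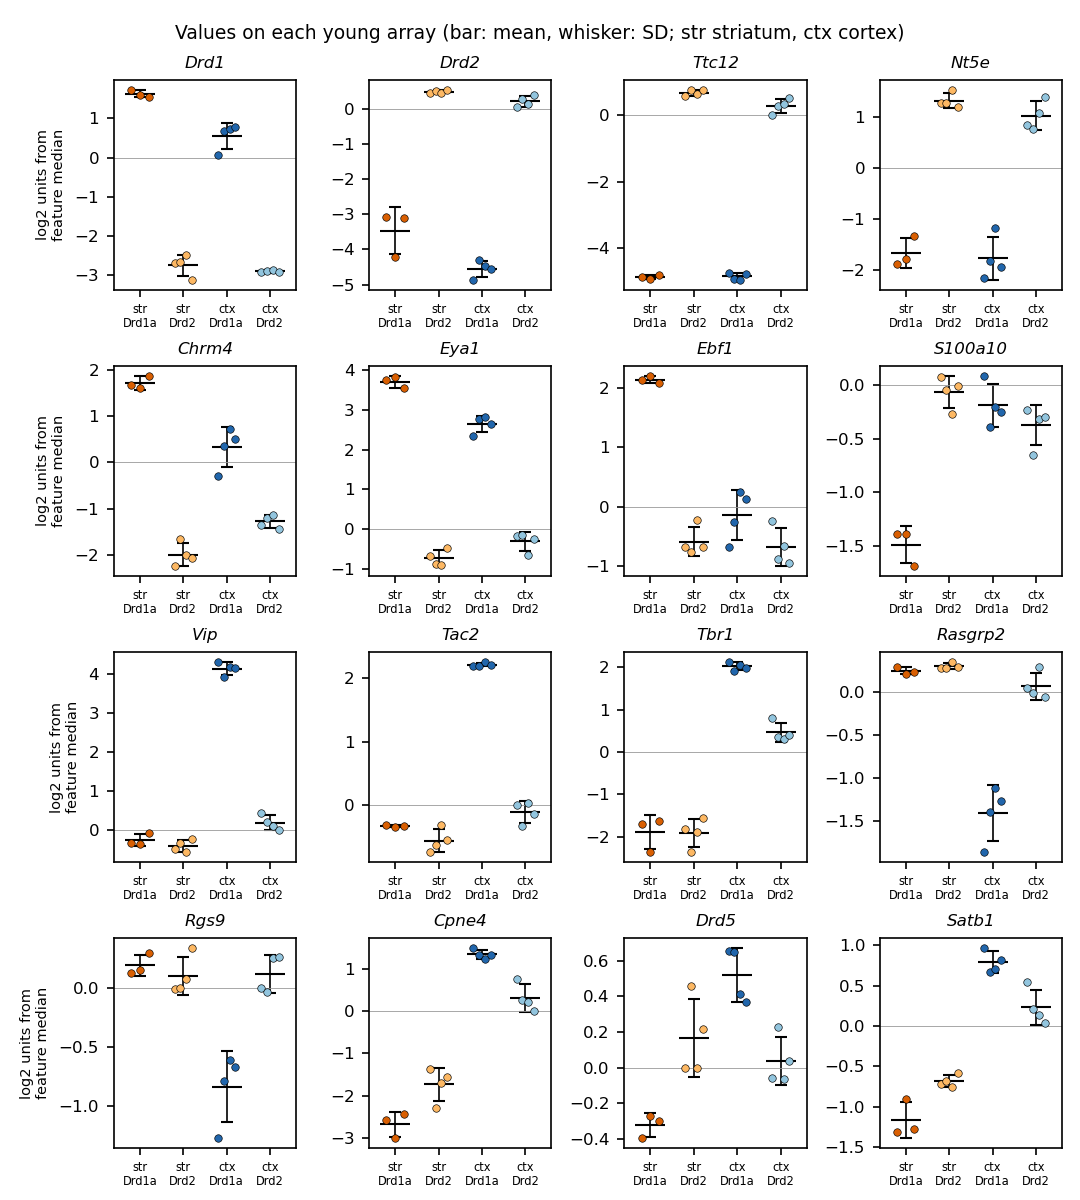
Values of 16 genes on each of the 15 young arrays, in log2 units from the feature's median over all arrays. Points are arrays, bars group means and whiskers SDs. Drd2, Ttc12 and Nt5e part the cell types in the same direction in both regions, Ebf1 and S100a10 in striatum, Vip, Tac2 and Rasgrp2 in cortex, and Cpne4, Drd5 and Satb1 in opposite directions.

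Features called in cortex and not in striatum made up 410 of the 584 called interactions, with 233 higher in Drd1a and 177 higher in Drd2 cells. The start regions of 4 genes that show the patterns are given first, from RefSeq on GRCm38.p6, each 250 bases before to 50 after the gene's start on the plus strand: Vip (chr10:5638968-5639267) and Tac2 (chr10:127724228-127724527), higher in cortical Drd1a cells, Chrm4 (chr2:91921939-91922238), unequal between regions, and Drd2 (chr9:49340153-49340452), higher in Drd2 cells of both regions. Capitals mark TGACG, the short form of the cyclic AMP response element, searched on both strands as were the full element TGACGTCA and the AP-1 motif TGANTCA.
Vip: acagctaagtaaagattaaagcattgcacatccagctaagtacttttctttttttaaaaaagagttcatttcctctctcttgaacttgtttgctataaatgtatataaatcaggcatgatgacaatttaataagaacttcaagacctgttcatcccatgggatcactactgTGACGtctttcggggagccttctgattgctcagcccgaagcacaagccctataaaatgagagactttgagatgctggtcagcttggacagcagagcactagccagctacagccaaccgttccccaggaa
Tac2: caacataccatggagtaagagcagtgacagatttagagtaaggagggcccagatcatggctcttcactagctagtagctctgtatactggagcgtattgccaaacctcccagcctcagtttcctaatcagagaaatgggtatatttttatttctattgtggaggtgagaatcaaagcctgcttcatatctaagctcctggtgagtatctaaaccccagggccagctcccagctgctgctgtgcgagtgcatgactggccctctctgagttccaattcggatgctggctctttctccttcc
Chrm4: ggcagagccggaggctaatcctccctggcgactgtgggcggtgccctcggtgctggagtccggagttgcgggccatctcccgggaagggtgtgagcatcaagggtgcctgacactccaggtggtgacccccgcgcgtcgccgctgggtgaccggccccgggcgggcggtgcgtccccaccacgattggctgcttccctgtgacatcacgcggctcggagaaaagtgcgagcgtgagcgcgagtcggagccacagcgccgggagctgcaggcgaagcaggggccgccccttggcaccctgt
Drd2: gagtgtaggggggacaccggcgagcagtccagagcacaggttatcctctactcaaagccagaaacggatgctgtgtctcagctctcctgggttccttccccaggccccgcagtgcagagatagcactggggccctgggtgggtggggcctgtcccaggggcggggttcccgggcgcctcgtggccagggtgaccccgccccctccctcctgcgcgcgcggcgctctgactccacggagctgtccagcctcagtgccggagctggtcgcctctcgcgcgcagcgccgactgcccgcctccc
The short form occurred once, in the Vip window. It occurred in 20.8% of 32851 such windows, the full element in 1.79% and the AP-1 motif in 7.81%. The letters of the other motifs were in none of the 4 windows.

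Vip, the vasoactive intestinal peptide of a class of cortical interneurons, lay at 4.33, 3.94, 4.18 and 4.16 in cortical Drd1a arrays and at 0.45, 0.20, 0.10 and 0.00 in cortical Drd2 arrays. In striatum it lay at -0.34, -0.36 and -0.07 in Drd1a and at -0.49, -0.32, -0.57 and -0.23 in Drd2 arrays. Cortical Drd1a cells stood apart from the other groups, and the striatal groups overlapped. Vip was 15.6-fold higher in Drd1a cells in cortex (3.96 ± 0.11), with a striatal difference of 0.14 ± 0.12. Its interaction of -3.82 ± 0.16 was the largest of any feature (adjusted p = 4.04e-09).

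Tac2, the precursor of neurokinin B, lay at 2.20, 2.20, 2.26 and 2.21 in cortical Drd1a arrays and between -0.35 and 0.03 in cortical Drd2 arrays. In striatum it lay between -0.36 and -0.33 in Drd1a and between -0.76 and -0.33 in Drd2 arrays. The same single group stood apart. The cortical difference was 2.34 ± 0.09 and the interaction -2.10 ± 0.13 (adjusted p = 5.67e-07). Htr3a, the serotonin-gated channel of Vip-related interneurons, had an interaction of -0.99 ± 0.17. Adarb2, an RNA-editing family gene of the same interneuron lineage, was higher in Drd1a cells in both regions, by 0.55 ± 0.07 in striatum and 1.27 ± 0.07 in cortex (interaction -0.72 ± 0.10). Npy, neuropeptide Y, differed by 1.92 ± 0.20 in cortex, and its interaction of -1.25 ± 0.29 was lost in 7 of 15 leave-outs (adjusted p up to 0.0612).

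Of 15 measured interneuron genes, 8 were called in cortex, all higher in Drd1a cells, beside 6.99% of all features. In striatum 2 were called, also higher in Drd1a cells, beside 1.93% of all features. The interaction was called for 5, in 4 toward cortex and in Reln toward striatum. The median difference was 0.68 in cortex and 0.15 in striatum, and the median interaction -0.30. Some widely used interneuron markers were not called, and they were picked after their values were seen: the cortical difference was 0.44 ± 0.33 for Pvalb, parvalbumin, 0.60 ± 0.31 for Sst, somatostatin, and -0.04 ± 0.12 for Lhx6, a factor of the lineage that gives rise to both.

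Most measured genes of glutamatergic and of layer 6 cortical neurons were also higher in cortical Drd1a cells. Tbr1, a transcription factor of layer 6 neurons, lay at 2.13, 1.91, 2.05 and 1.99 in cortical Drd1a arrays and at 0.79, 0.34, 0.32 and 0.39 in cortical Drd2 arrays. In striatum it lay between -2.36 and -1.62 in Drd1a and between -2.36 and -1.56 in Drd2 arrays. The order was cortical Drd1a, cortical Drd2 and then the overlapping striatal groups. The cortical difference was 1.56 ± 0.17, and the interaction -1.54 ± 0.25 (adjusted p = 0.00373). Of 12 measured layer 6 genes, 9 were higher in cortical Drd1a and 2 in cortical Drd2 cells. The interaction was called toward cortex for 5 of them. Over all features, 6.99% were higher in cortical Drd1a and 5.59% in cortical Drd2 cells. Of 13 measured layer 5 genes, 3 were higher in cortical Drd1a cells and 10 were not called in cortex. The interaction was called for 3 layer 5 genes, negative in 2 and positive in 1, beside 3.57% of all features. In 2 of the 3, S100a10 among them, the cell type difference was called in striatum and not in cortex. Of 7 glutamatergic genes, 5 were higher in cortical Drd1a cells. The interaction was called for 3, all negative, beside 1.9% of all features.

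Slc17a7, the vesicular glutamate transporter VGLUT1, differed by 1.44 ± 0.14 in cortex and 0.54 ± 0.16 in striatum. Its interaction of -0.90 ± 0.21 was lost in 5 of 15 leave-outs (adjusted p up to 0.063). Slc17a6, VGLUT2, had an interaction of -0.92 ± 0.19. Nxph3, a neurexin ligand, differed by 1.71 ± 0.11 in cortex and -0.02 ± 0.12 in striatum, with an interaction of -1.73 ± 0.17 (adjusted p = 0.000117). Ccn2, a marker of the deepest cortical layer, and Fezf2, a factor of subcerebral projection neurons, had interactions of -1.06 ± 0.20 and -0.99 ± 0.15. The transcription factor genes Sox5 (-0.96 ± 0.18) and Nfia (-0.96 ± 0.14) lay in the same direction. The interactions of Slc17a7, Slc17a6, Ccn2, Fezf2, Sox5 and Nfia were not called after quantile normalization. The semaphorins Sema3c and Sema5a were called at -1.26 ± 0.11 and -1.51 ± 0.20, with and without it.

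Astrocyte genes moved with this group. Of 14 measured, 8 were higher in cortical Drd1a than in cortical Drd2 arrays and none was called in striatum. The share of all features higher in cortical Drd1a arrays was 6.99%. The mean of the astrocyte list ran from 0.30 to 0.61 in cortical Drd1a arrays, from -0.19 to 0.029 in cortical Drd2 arrays, from -0.46 to -0.047 in striatal Drd1a arrays and from -0.53 to -0.28 in striatal Drd2 arrays. Apoe, a lipid carrier made by astrocytes, differed by 1.45 ± 0.18 in cortex. The interaction was called for 2 astrocyte genes, Gfap (-0.78 ± 0.19) and Glul (-0.80 ± 0.20), and lost in 10 and 11 of 15 leave-outs (adjusted p up to 0.0911 and 0.0831). The part of astrocyte RNA in the cortical differences was not tested.

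In the other direction stood genes that striatal projection neurons of both kinds share. Of 15 measured, 14 were higher in Drd2 than in Drd1a cells in cortex and 2 in striatum, beside 5.59% and 1.49% of all features. The interaction was called for 13, in 12 toward Drd1a in striatum and in Arpp21 the other way (-0.28 ± 0.07, lost in 14 of 15 leave-outs, adjusted p up to 0.094). Fits that left out 1 array each gave 9 to 13 positive calls, the fewest without striatum Drd1a replicate 1. The 14 cortical calls were made whichever array was left out, while the striatal count ran from 0 to 2 (0 without any of 7 arrays). The median difference was -0.95 in cortex and -0.11 in striatum.

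Rasgrp2, a calcium-regulated activator of Rap1, lay at -1.86, -1.39, -1.11 and -1.27 in cortical Drd1a arrays and at 0.04, -0.01, 0.29 and -0.06 in cortical Drd2 arrays. In striatum it lay at 0.29, 0.22 and 0.24 in Drd1a and between 0.28 and 0.35 in Drd2 arrays. The cortical Drd1a group alone stood apart, and the cortical Drd2 arrays came near the striatal ones. The difference was -1.47 ± 0.12 in cortex and -0.05 ± 0.13 in striatum, with an interaction of 1.42 ± 0.18 (adjusted p = 0.000531). Rgs9, which shortens dopamine receptor signalling, lay between -1.27 and -0.61 in cortical Drd1a arrays, between -0.04 and 0.26 in cortical Drd2 arrays and between -0.01 and 0.34 in all striatal arrays. Its interaction was 1.04 ± 0.19. The striatal phosphodiesterases Pde10a (0.96 ± 0.18) and Pde1b (0.91 ± 0.11) and the factor Meis2 (0.90 ± 0.17) had interactions of like size.

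Adcy5, the main striatal adenylyl cyclase, had an interaction of 1.10 ± 0.24, lost without striatum Drd1a replicate 1 (adjusted p = 0.0609). Scn4b, a sodium channel subunit, had one of 1.39 ± 0.31, lost without striatum Drd1a replicate 1 or 3 (adjusted p up to 0.0636). Ppp1r1b, the phosphatase regulator DARPP-32, had one of 0.52 ± 0.13, lost in 7 of 15 leave-outs (adjusted p up to 0.074). Rxrg, a retinoid receptor, had one of 1.27 ± 0.28, lost without striatum Drd1a replicate 1 (adjusted p = 0.061). Outside the list, Prkch, a protein kinase C, had the largest positive interaction among genes with 1 symbol called in cortex and not in striatum, at 1.73 ± 0.27 (adjusted p = 0.00251). Of 29 measured genes of cyclic AMP signalling, 11 were higher in cortical Drd2 and 4 in cortical Drd1a cells. The shares over all features were 5.59% and 6.99%. The interaction was called for 9 of the 29, in 8 of them toward Drd1a in striatum, beside 3.57% of all features called.

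Setting the regions against each other within a cell type, a comparison added after these lists had been seen, showed where the shared striatal genes differed. In Drd1a cells 14 of the 15 were higher in striatum than in cortex, beside 20.4% of all features called in either direction. In Drd2 cells 2 of the 15 were higher in striatum, beside 8.46% of all features called in either direction. Of all 16345 features, 1778 were called higher in striatum in Drd1a cells and 547 in Drd2 cells. With each array left out in turn, the count among the 15 was 14 in Drd1a cells and between 0 and 3 in Drd2 cells (0 without cortex Drd2 replicate 1, 1 without striatum Drd2 replicate 2). The list's mean ran from -1.21 to -0.67 in cortical Drd1a arrays, from -0.066 to 0.13 in cortical Drd2 arrays, from 0.078 to 0.18 in striatal Drd1a arrays and from 0.17 to 0.28 in striatal Drd2 arrays. The lowest value was that of cortical Drd1a replicate 1. The cortical label was also visible in Drd2 cells: 5 of 7 glutamatergic genes were lower in striatum than in cortex in each cell type. Among all 16345 features, 1560 were called lower in striatum in Drd1a cells and 836 in Drd2 cells. The mean of the glutamatergic list ran from 1.37 to 1.55 in cortical Drd1a, from 0.32 to 0.79 in cortical Drd2, from -1.64 to -1.05 in striatal Drd1a and from -1.73 to -1.46 in striatal Drd2 arrays. Whether striatal tissue or RNA in the cortical Drd2 samples took part in these values was not tested.

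**Figure D4:**
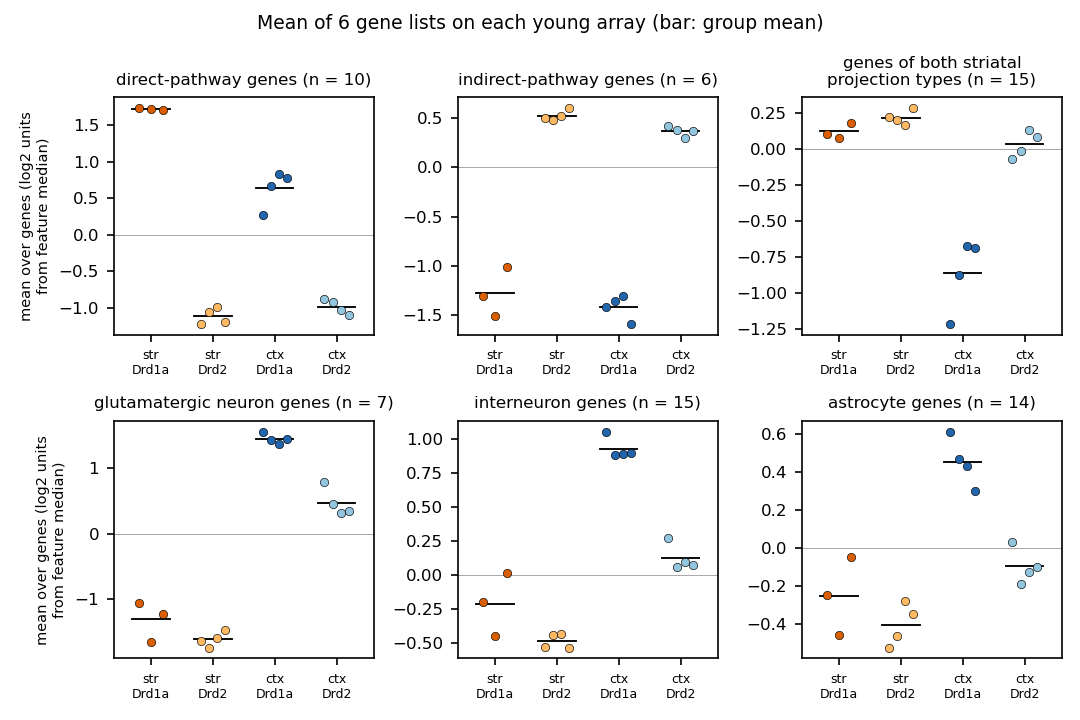
Mean level of 6 gene lists on each young array, in log2 units from the feature medians. Points are arrays and bars group means. The shared striatal genes are low in cortical Drd1a arrays (-1.21 to -0.67) and near the striatal arrays in cortical Drd2 arrays (-0.066 to 0.13), while glutamatergic, interneuron and astrocyte genes are highest in cortical Drd1a arrays.

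Opposite directions in the 2 regions were found for 15 features, 12 higher in Drd2 cells in striatum and in Drd1a cells in cortex, and 3 the other way. Cpne4, a calcium-dependent membrane-binding copine, lay at -2.59, -3.02 and -2.44 in striatal Drd1a arrays and between -2.30 and -1.38 in striatal Drd2 arrays. In cortex it lay between 1.24 and 1.5 in Drd1a and between 0.00 and 0.77 in Drd2 arrays. Neither pair of groups overlapped. The difference was -0.95 ± 0.20 in striatum and 1.04 ± 0.19 in cortex, with an interaction of -1.98 ± 0.28 (adjusted p = 0.00122). Its striatal call was lost without striatum Drd1a replicate 2 (adjusted p = 0.0655), and its cortical difference was 0.47 and not called after quantile normalization. Gabra3, a GABA-A receptor subunit, and Zmat4, a zinc-finger gene, kept both regional calls whichever array was left out. Gabra3 differed by -0.98 ± 0.19 and 0.86 ± 0.17, and Zmat4 by -0.68 ± 0.11 and 0.69 ± 0.10.

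Drd5, the second receptor of the D1 class, lay at -0.40, -0.27 and -0.30 in striatal Drd1a arrays and at 0.00, 0.46, 0.00 and 0.22 in striatal Drd2 arrays. Its cortical values lay between 0.37 and 0.65 in Drd1a and between -0.06 and 0.23 in Drd2 arrays. Drd5 was therefore lower where Drd1 was higher in striatum, and higher with Drd1 in cortex. The differences were -0.49 ± 0.11 and 0.49 ± 0.10, and the interaction was -0.98 ± 0.15 (adjusted p = 0.00278). The striatal call was lost in 4 of 15 leave-outs (adjusted p up to 0.11), and the interaction in none. Satb1, a chromatin organiser, had an interaction of -1.04 ± 0.16, with a striatal difference of -0.48 ± 0.12 that was lost in 6 of 15 leave-outs (adjusted p up to 0.171). On the other side Unc13c, a synaptic vesicle priming gene, had an interaction of 1.38 ± 0.27, not called without the 2 arrays of highest median (adjusted p = 0.0567). Its striatal difference, 0.75 ± 0.20, was lost in 11 of 15 leave-outs (adjusted p up to 0.188), and its cortical difference, -0.63 ± 0.18, in 4 (adjusted p up to 0.0887).

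Necab1, a neuronal calcium-binding gene, was unequal on the Drd2 side. It lay at -1.71, -1.40 and -1.54 in striatal Drd1a arrays and between 0.12 and 0.45 in striatal Drd2 arrays. The values in cortex lay between -0.45 and -0.34 in Drd1a and between 0.23 and 0.53 in Drd2 arrays. The Drd2 groups overlapped each other, and the Drd1a groups lay below them at different levels. The difference was -1.82 ± 0.09 in striatum and -0.75 ± 0.09 in cortex (interaction -1.07 ± 0.13, adjusted p = 0.000407).

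Gene families divided between the classes. Over all features, 3.43% were called in striatum, 12.6% in cortex and 3.57% for the interaction. Of 51 measured potassium channel genes, 5 were called in striatum and 22 in cortex, 10 of these higher in Drd1a cells, and the interaction was called for 8. Of 56 genes of axon guidance, 5 were called in striatum and 20 in cortex, and the interaction was called for 9, in 5 toward Drd1a in striatum. Of 45 forebrain regulators, 13 were called in striatum and 22 in cortex, and the interaction for 13. Vascular genes (10 measured) had no call in any of the 3 comparisons. Microglial (13) and oligodendrocyte genes (17) had no called interaction. The median interaction of the oligodendrocyte list was nevertheless 0.42, beside 0.023 over all features. The mean of that list spread widely in striatum, from -0.32 to 0.27 in Drd1a and from -0.22 to 0.21 in Drd2 arrays. In cortex it ran from -0.40 to -0.28 in Drd1a and from -0.058 to 0.033 in Drd2 arrays. In cortex 2 microglial and 5 oligodendrocyte genes were higher in Drd2 cells, beside 5.59% of all features.

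The interaction was then computed in the 16 arrays from mice of 2 years, which had no part in the calls. Of the 584 features, 533 (91.3%) had the same sign there, beside 52.4% of all features, and 84 were also called with the same sign. None was called with the opposite sign. In all, the old arrays gave 145 called interactions (0.887%). The median size in the young direction was 0.38 in the old arrays, against 0.68 in the young arrays in which the features had been called. Vip had an old interaction of -3.23 ± 0.18, Tac2 one of -1.68 ± 0.27, Ebf1 one of 1.68 ± 0.19 and Eya1 one of 1.12 ± 0.18, and these 4 were called. Chrm4 had 0.71 ± 0.25 and S100a10 -0.59 ± 0.32, and neither was called.

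By class, the same sign was found in 384 of the 410 whose cell type difference was called in cortex alone, in 62 of the 72 where it was called in striatum alone, in 27 of the 28 unequal ones and in 11 of the 15 opposed ones. Of the shared striatal genes, 14 of 15 had a positive old interaction, with 4 called and a median of 0.39. Of the 272 features of the same direction without a called interaction, 239 had that sign in both old regions and 64 were called in both, where 2.04% of features were called in old striatum and 4.66% in old cortex. In 5 of the 272 the old interaction was called, among them Ptprm of the indirect-pathway list (-0.82 ± 0.14). A direct test of the young against the old interaction over all 31 arrays (limma) called 0 features, with 957 (5.86%) at an unadjusted p under 0.05 and a lowest adjusted p of 0.331.

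**Figure D5:**
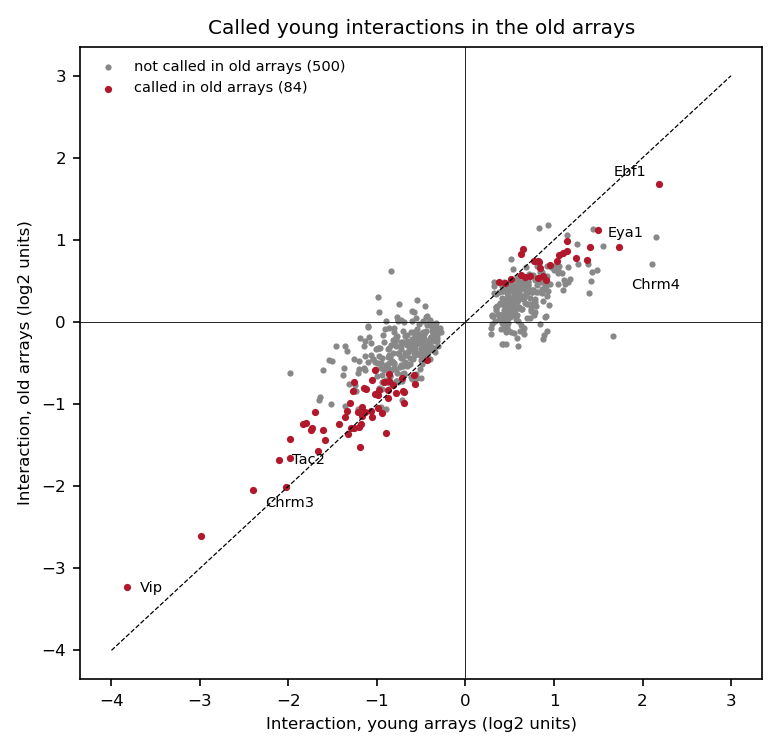
Interaction in log2 units for the 584 features called in the young arrays, with the young value on the horizontal and the old value on the vertical axis and equality as a dashed line. Features also called in the old arrays are red (84). Most points lie in the quadrants of equal sign and nearer to 0 on the old axis.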

How the data were processed

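RNA bound to tagged ribosomes was hybridised to 1-colour arrays, 1 per sample, with 15 young arrays in the comparisons and 16 old arrays as a separate set. The deposited values are log2 values made by RMA with the mm8 genome build, per the submitters' processing notes; no version of either is given there. The deposited log2 values were centred: 16341 of 16345 features had a median of 0 over the 31 arrays. In 3 deposited columns 1 cell each lacked a decimal point and so was no log2 value. All 3, and a single cell left blank, were treated as missing. Of these, 1 each fell in young cortex Drd2 replicate 3, young striatum Drd2 replicate 3 and young striatum Drd1a replicate 1, and no gene named here had one. The number of arrays limits the precision, and detection per probe was not used here.

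limma 3.58.1 in R 4.3.3 fitted 1 mean per group to the young arrays (11 residual degrees of freedom) and, separately, to the old ones (12). A call needed a Benjamini-Hochberg adjusted p under 0.05 over 16345 features and a 1.2-fold change. Errors are SE unless named, and intervals are 95%. Gene names came from the platform annotation, updated through RefSeq: 14793 features had 1 symbol, 814 several and 738 none listed. No feature with several symbols or none was named, and a further 1296 with 1 symbol were counted and not named. Fits were tested on simulated data with known interactions in 50 features per size. A 1.2-fold interaction was called in the right direction in 2% of them, a 1.5-fold one in 74% and a 2-fold one in 98%. Interactions near the fold threshold were thus mostly missed in that setting. Alternatives were quantile normalization, median centring, blocks, array weights, trended moderation, all 31 arrays in the fit, other fold thresholds and leaving out each array. Quantile normalization acted on the centred log2 values and not on array intensities, so it can change the most extreme values of an array.

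The members and the 30 gene lists were chosen with earlier results of these data known. A naming rule picked 150 features: Drd1, Drd2, the largest interactions overall and in each class, and the largest called members of each list. Not all of these are named here. Of the 79 genes named, 13 (among them Penk, Pdyn, Zfp521, Pvalb and Sst) lay outside the rule and were chosen after their values were seen.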

Additional observations from a re-analysis of the deposited data

Results flagged for a closer look

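The cell type difference itself differed between striatum and cortex, by the test of the interaction, in 584 features. The text above describes them by class.

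Within groups of 4 arrays, 9 of the 237 gene groups checked had 1 array far from the other 3, and so had 2 of 90 list means. In these the gap to the nearest array took more of the group's range than Dixon's 95% critical value for 4 arrays, which chance gives in about 1 group in 20. Cortical Drd1a replicate 1 was the array in 5 of the 11 cases. It was lowest for Drd1 (gap of 0.846 of the range), for Kcnk2 (0.890) and for the mean of the axon guidance list (0.928), and highest for Stmn2 (0.889) and for the mean of the interneuron list (0.879). Its Drd1 value was 0.070, against 0.670 to 0.778 in the other 3 arrays.

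Cortical Drd2 replicate 1 was lowest for Grik2 (0.983) and highest for Tbr1 (0.846) and for Zmat4 (0.867). Its Tbr1 value was 0.794, against 0.318 to 0.391. In striatal Drd2 arrays, Chrna4 was high in replicate 4 (0.934) and Ebf1 in replicate 3 (0.854). Tac2 in cortical Drd1a replicate 3 was also apart (0.833), within a range from 2.20 to 2.26. The called interactions of Ebf1, Grik2, Chrna4, Tac2, Tbr1 and Zmat4 were called whichever array was left out.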

How the results depend on the processing

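Quantile normalization gave 374 called interactions, 354 calls in striatum, 14 features of unequal size, 9 opposed, 262 called in cortex with a called interaction, and 325 young interactions of the same sign in old arrays. It turned the interaction of Drd1 to -0.51. No other of the 93 called interactions of genes picked by the naming rule changed direction under any alternative. The cause was not tested. A 1.5-fold threshold, stricter by construction, gave 362 interactions, 201 calls in striatum, 692 in cortex, 79 features of the same direction without a called interaction, 10 unequal, 5 opposed, 35 called in striatum with a called interaction, 226 in cortex, and 339 of the same sign in old arrays. Array weights gave 111 features called in striatum with a called interaction. Without the 2 young arrays whose median exceeded 0.05, chosen after the data were seen, there were 300 calls in striatum, 166 of the same direction without a called interaction, 13 unequal, 8 opposed and 39 called in striatum with a called interaction. Median centring gave 182 positive and 375 negative interactions.

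With each array left out in turn, the interactions numbered 385 to 614, the calls in striatum 305 to 659 and in cortex 1644 to 2116. Features of the same direction without a called interaction numbered 163 to 298, unequal ones 16 to 36, opposed ones 8 to 19, those called in striatum with a called interaction 43 to 90, those in cortex 286 to 456, and those of the same sign in old arrays 522 to 547. The lowest young counts came without striatum Drd1a replicate 1, apart from the calls in cortex (without cortical Drd1a replicate 1). The naming rule picked genes with 93 called interactions, not all of which are printed here. Of these, 48 were called in every alternative and 66 whichever array was left out. Quantile normalization ended 25 of these calls besides that of Drd1. Of the 79 genes named in the text, 52 had a called interaction. In 39 of these it was called whichever array was left out, and in 37 after quantile normalization.

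Deviations of same-numbered arrays correlated from -0.27 to 0.18 over all pairs, and from -0.11 to 0.047 within a cell type. The number was not taken to pair the arrays. The replicate block gave 523 interactions, the replicate block within cell type 376 and the random replicate block 443. A filter on dim features was not run, since centred values keep no level. Signal over background is therefore unknown, and no gene can be called absent.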
